A study of Homo sapiens with 6 samples.

Results

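The genes described here are the expressed members of the LINC series, the numbered symbols given to long intergenic non-coding RNA genes. They were chosen by level: a gene entered when its symbol was LINC followed only by digits and its raw count, divided by the library's total and scaled to counts per 1e6 (CPM), reached at least 1 in any of the 6 libraries. Of the 60671 rows of the count table, 2267 carried such a symbol, and 313 of them met the rule, out of 17714 genes of any kind that did. A further 1279 LINC rows held no count in any library. The rule read the level in every library, so the levels below describe the members and are not findings.

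Long non-coding RNAs are transcribed by the same polymerase as messenger RNA, are mostly spliced and polyadenylated, and have no recognised protein product. They are known for low levels, for restriction to few cell types and, where a function has been worked out, for acting on chromatin, on transcription of nearby genes or as binding partners of proteins and other RNAs. A LINC number does not record a function, so neighbours in number need not share one. Some of them do lie side by side in the genome, such as LINC03014 and LINC03015.

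Messenger RNA libraries came from A549, HCC827 and H1975, which are 3 cultured lines grown from human lung adenocarcinomas (the labels say non-small cell lung cancer). EGFR is mutated in HCC827 and in H1975. In each line 1 library came from cells given the solvent DMSO and 1 from cells given AL-X, the labels' short name for a dihydroxylated kaurenoic acid (a plant diterpene), at 10 µg/mL, both for 48 hours. The labels give every library the genotype WT. The 3 lines were the only replicates of the treatment.

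The 6 libraries held 98139178 to 126840915 counts, at which depth 1 CPM is 98.1 to 127 counts. The scaling factors of the trimmed mean of M-values method (TMM) ran from 0.903 to 1.27 in 5 libraries and stood at 0.557 in A549 with AL-X, which stood apart. Mitochondrial genes held 6.41 to 6.87% of the counts with DMSO, and with AL-X the share was 0.0201% for A549, 0.0535% for H1975 and 0.656% for HCC827. All 6 epithelial markers tested were detected, with a summed level of 2192 to 4820 CPM. In A549 with DMSO and AL-X, EPCAM stood at 2.94 and 0.814 CPM, CLDN4 at 1.01 and 1.65, and KRT19 at 5.51 and 2.56. Most of the sum there came from KRT8 (3077 and 1406 CPM) and KRT18 (1503 and 772 CPM). The lung markers NKX2-1, NAPSA and SFTPB were under 1 CPM in A549, and SFTPB was also at 0.153 and 0.107 CPM in H1975. Of the 4 leukocyte markers, PTPRC, CD3E and MS4A1 were at 0 in every library and CD68 ranged from 8.94 to 472 CPM. The 4 fibroblast markers summed to 0.65 to 18.8 CPM, nearly all COL1A1, the 3 endothelial markers to 0.244 to 4.08 CPM and the 2 haemoglobin markers to at most 20.4 CPM, in A549 with AL-X.

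Promoter windows show 2 features of how some members are built, and a last window belongs to the member with the largest positive fold in HCC827 among those at 5 CPM or more. The RefSeq table for GRCh38.p14, from 250 bases before to 50 bases after each start, held windows for 206 of the 313 members. LINC01106 (chr2:110384487-110384786, minus strand) and LINC01123 (chr2:109986730-109987029, plus strand) are copies of each other on opposite strands of chromosome 2. The capitals mark the 289 bases that their windows share without a mismatch:
LINC01106: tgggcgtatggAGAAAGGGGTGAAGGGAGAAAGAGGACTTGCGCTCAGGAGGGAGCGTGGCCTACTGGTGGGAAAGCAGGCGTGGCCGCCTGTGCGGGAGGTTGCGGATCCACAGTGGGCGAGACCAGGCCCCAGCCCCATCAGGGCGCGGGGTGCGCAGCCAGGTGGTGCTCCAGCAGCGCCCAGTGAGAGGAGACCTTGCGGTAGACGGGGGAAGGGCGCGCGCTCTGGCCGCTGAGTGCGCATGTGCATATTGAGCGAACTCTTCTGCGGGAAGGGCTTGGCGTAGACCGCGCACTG
LINC01123: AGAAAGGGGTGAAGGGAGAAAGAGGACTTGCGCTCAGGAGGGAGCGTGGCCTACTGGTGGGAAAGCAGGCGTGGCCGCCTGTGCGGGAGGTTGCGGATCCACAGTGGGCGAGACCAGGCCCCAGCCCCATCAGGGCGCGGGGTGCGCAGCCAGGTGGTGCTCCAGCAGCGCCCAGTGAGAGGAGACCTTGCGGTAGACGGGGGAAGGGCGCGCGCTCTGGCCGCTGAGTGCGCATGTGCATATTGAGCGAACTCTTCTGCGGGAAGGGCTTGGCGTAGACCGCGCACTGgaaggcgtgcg
LINC03015 (chr7:149389-149688, minus strand) starts head to head with another member, LINC03014, and the capitals mark the 221 bases of its window that also lie in the window of LINC03014:
LINC03015: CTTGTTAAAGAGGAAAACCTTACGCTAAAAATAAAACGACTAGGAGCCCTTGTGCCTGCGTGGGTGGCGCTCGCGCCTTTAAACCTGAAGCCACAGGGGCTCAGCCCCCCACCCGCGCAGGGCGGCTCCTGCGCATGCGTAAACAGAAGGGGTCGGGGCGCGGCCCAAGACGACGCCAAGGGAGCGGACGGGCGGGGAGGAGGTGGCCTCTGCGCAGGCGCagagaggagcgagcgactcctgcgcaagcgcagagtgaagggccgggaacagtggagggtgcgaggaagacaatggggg
LINC00513 (chr7:130913214-130913513, plus strand) has a RefSeq start inside the longer gene model used for counting here, and the capitals mark 3 motif matches:
LINC00513: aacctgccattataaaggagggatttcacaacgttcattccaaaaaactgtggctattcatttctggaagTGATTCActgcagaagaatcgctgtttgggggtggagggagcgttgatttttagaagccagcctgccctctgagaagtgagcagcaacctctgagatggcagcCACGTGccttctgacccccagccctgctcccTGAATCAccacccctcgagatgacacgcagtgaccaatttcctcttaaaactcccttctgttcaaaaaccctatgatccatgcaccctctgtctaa
Those matches are TGATTCA and TGAATCA, 180 and 46 bases before the start, and CACGTG, an E-box, 77 bases before it. The first 2 were found with TGANTCA, a loose pattern for an AP-1 element that allows any middle base. Their middle base is T or A, not the C or G of the usual AP-1 element. Both strands were searched, and neither motif overlaps the other there. TGANTCA was found in 7.71% of all 35116 windows and in 12.5% of the 232 windows of members, and CACGTG in 7.26% and 8.19%. LINC01106, LINC01123 and LINC03015 held no match to these motifs, nor to TGATGNAA, TGACNNNGC, TGACGTCA, the heat shock element or the CArG box. A match describes letters only and was not tested for use.

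The members were low. The median of their highest level was 3.49 CPM, 184 stayed under 5 CPM in every library, and 72 reached 10 CPM in at least 1. At the edge of the rule, LINC02878 and LINC02688 entered with 1.01 CPM each (111 counts in A549 with DMSO) and LINC00412 with 1.01 CPM (99 counts in HCC827 with AL-X). Just outside it lay LINC02273 with 0.999 CPM (98 counts in HCC827 with AL-X and 0 in the other libraries), LINC02972 with 0.985 CPM and LINC00954 with 0.970 CPM (123 counts in HCC827 with DMSO and 0 elsewhere). By the GENCODE 29 annotation 256 members were typed lincRNA, 11 had a pseudogene type and 2, LINC02693 and LINC03040, were typed protein-coding. The median member had 2412 bases of merged exons and up to 4 exons, and 30 members had 1 exon.

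In the untreated lines most members did not reach 1 CPM in all 3 lines. At least 1 count was found for 258 of the 313 members in A549, 287 in HCC827 and 273 in H1975. The 1 CPM cut lies near the members' own level, and the counts below have no share of all genes beside them. With DMSO, 82 members reached 1 CPM in all 3 lines, 72 in 2 lines and 128 in 1 line, while 31 reached it in none. Of those in 1 line, 42 were in A549, 36 in HCC827 and 50 in H1975. The median member had 64.0% of its summed DMSO level in its highest line, and 67 members had at least 90% there, 23 of them in A549, 27 in HCC827 and 17 in H1975.

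Per kilobase of exon and scaled by TMM, LINC02474 on chromosome 1 (chr1:221966341-221984964) had the highest mean level with DMSO, 24.4 scaled CPM per kilobase. Its level was 0 counts in A549, 20.1 in HCC827 and 52.9 in H1975 per kilobase, so the gene was not detected in 1 line at this depth and was high in the others. LINC00342 followed with 10.4, 22.6 and 20.9 per kilobase in A549, HCC827 and H1975. LINC02582 had 7.997 and 26.4 per kilobase in A549 and HCC827 and no count in H1975. LINC01106 had 10.0, 16.0 and 8.01 per kilobase, detected in all 3 lines. LINC00973, LINC03061, LINC01123 and LINC02889 completed the 8 highest, with means of 9.31, 8.38, 8.23 and 7.84 per kilobase. LINC02889 owed its place to HCC827 alone, with 23.1 per kilobase there against 0.367 in A549 and 0.0357 in H1975.

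The members most restricted to 1 line were nearly absent from the others. In A549, LINC02532 had 2219 counts with DMSO (18.0 scaled CPM) against 8 in HCC827 and 0 in H1975. LINC02506 had 1224 counts in A549 against 4 and 0, and LINC01182 had 700 against 0 and 4. In HCC827, LINC01446 had 1533 counts (10.4 scaled CPM) against 0 in both other lines. A count of 0 allows up to 0.0243 scaled CPM in A549 with DMSO and 0.0239 in H1975 (3 counts). LINC00501 had 1497 counts in HCC827 against 0 and 7. In H1975, LINC01224, which lies 3673 bases from the zinc finger gene ZNF91, had 2746 counts (21.9 scaled CPM) against 0 in both other lines. LINC01511 had 1879 counts in H1975 against 0 in A549 and 4 in HCC827, and LINC02984 had 2038 against 4 and 31. With AL-X all these members but LINC02506 and LINC01511 were lower by 2-fold or more in their own line. They were picked for a high level in that same DMSO library, which favours a lower value with AL-X, so this is not a finding. Of all genes at 2 CPM or more in the higher library, 34.0%, 19.1% and 20.9% were lower by 2-fold in A549, HCC827 and H1975. LINC02506 went from 9.91 to 5.11 scaled CPM in A549 and LINC01511 from 14.97 to 13.2 in H1975.

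Over library totals, AL-X came with fewer expressed members and a smaller share of counts in A549 and H1975, and with neither in HCC827. In A549 the members at 1 CPM or more numbered 154 with DMSO and 52 with AL-X, and their share of all counts was 0.118% (95% exact binomial interval 0.117 to 0.119) and 0.0265% (0.0263 to 0.0268). In H1975 they numbered 192 and 90, with shares of 0.153% (0.152 to 0.154) and 0.0525% (0.0521 to 0.0529). In HCC827 they numbered 172 and 177, with shares of 0.149% (0.149 to 0.150) and 0.170% (0.169 to 0.171). These intervals, and those of folds given later, cover counting error only. The CPM and shares here are over library totals, without TMM scaling. The TMM factors with DMSO and AL-X were 1.12 and 0.557 in A549, 1.20 and 0.903 in H1975, and 1.17 and 1.27 in HCC827. So 1 CPM stood for a higher scaled level with AL-X than with DMSO in A549 and H1975. In the same order the members' median scaled CPM was 0.851 and 0.192 in A549, 1.31 and 0.336 in H1975, and 1.12 and 1.06 in HCC827. Over counts outside the mitochondrial genome the share was 0.127% with DMSO and 0.0266% with AL-X in A549, 0.164% and 0.0525% in H1975, and 0.160% and 0.171% in HCC827. The number of genes of any kind at 1 CPM went from 14441 to 11979 in A549, from 14691 to 14437 in HCC827 and from 14847 to 13281 in H1975. In bulk RNA, fewer cells that express a gene and less RNA per cell cannot be told apart.

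**Figure D1:**
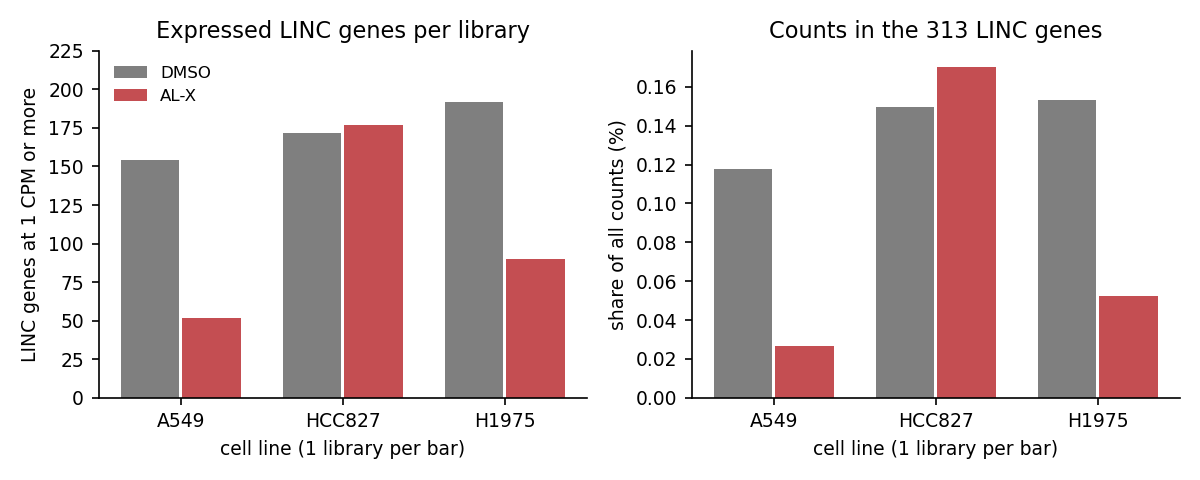
Left, LINC genes at 1 CPM or more in each library. Right, the share of all counts held by the 313 LINC genes, in percent. Grey bars are DMSO and red bars AL-X, 1 library each. The AL-X bar is the lower of the pair in A549 and H1975 (52 against 154 and 90 against 192) and about level in HCC827 (177 against 172).

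With AL-X 33 members reached 1 CPM in all 3 lines, 53 in 2, 114 in 1 and 113 in none. Of the members, 113 reached 1 CPM only in DMSO libraries and 31 only in AL-X libraries, beside 10.3% and 4.65% of the 17714 genes at 1 CPM in any library. Of those 31, 26 did so in HCC827, 6 in A549 and 2 in H1975. In A549, 109 members were under 1 CPM only with AL-X and 7 only with DMSO, beside 16.6% and 2.74% of those genes. In H1975 the numbers were 105 and 3, beside 10.6% and 1.73%, and in HCC827 35 and 40, beside 6.23% and 4.79%. The members' median highest level was 3.49 CPM, so many lay close to 1 CPM. These shares of all genes were not matched for level. LINC00173 was among 15 members at 1 CPM or more with DMSO in A549 and at 0 counts with AL-X. The reverse held for 2 members there. No share of all genes was worked out for these counts, so they are not read as a trait of the members.

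Across the 3 lines, 1 member passed the test. edgeR's quasi-likelihood test with the line as a block called LINC00342 lower and no member higher among the 271 members tested, at a Benjamini-Hochberg adjusted p under 0.05. Of all 20344 genes tested, 0.157% were called lower and 0.0983% higher. At an unadjusted p under 0.05, 35 members were lower and 2 higher, beside 10.2% and 5.48% of all genes. The median log2 fold was -1.15 over the members tested and -0.27 over all genes tested, and 221 of the members had a negative value. Leaving mitochondrial genes out before scaling left the members' median at -1.15, and without A549, whose AL-X library stood apart, it was -0.92 beside -0.13 for all genes. The other 42 members had too few counts in too few libraries for the test. The 3 lines leave 2 residual degrees of freedom, and DESeq2 on the same counts called 33 members lower and 2 higher, beside 6.81% and 2.95% of all genes, and limma-voom called 6 lower and none higher, beside 1.66% and 1.59%.

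LINC00342 (chr2:95807118-95816215, minus strand, ENSG00000232931) has been described as raised in lung cancers. It stood at 27.3 scaled CPM with DMSO and 0.177 with AL-X in A549, at 59.2 and 3.70 in HCC827, and at 54.8 and 3.08 in H1975. Every AL-X library lay below every DMSO library. The log2 fold across lines was -4.98 with a standard error of 0.79 (edgeR adjusted p = 0.0292), and it was lower in 3 of 3 lines. The adjusted p was 0.194 with library totals as the scaling, 0.249 with no filter on low counts, 0.0519 with mitochondrial genes left out before scaling and 0.569 without the line as a block, so these 4 settings lost the call. The log2 fold in them was -5.34, -5.06, -4.98 and -4.35. Leaving out a line gave log2 folds of -5.64 to -4.03 and kept it.

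LINC00342 shares sequence with other genes, so reads may have been split among them. A 654-base stretch is 98.93% identical to APPAT, which had log2 folds of -6.02, -3.30 and -2.63 in A549, HCC827 and H1975 (edgeR adjusted p = 0.0993). Its nearest protein-coding gene, ANKRD36C, lies 20704 bases away. ANKRD36C was at 12.3 and 0.635 scaled CPM in A549, 25.9 and 6.84 in HCC827 and 22.0 and 4.39 in H1975, with DMSO and AL-X (edgeR adjusted p = 0.131). The copy and the neighbour were lower with AL-X in every line without passing the test.

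The next results set the 2 libraries of a line side by side. A line has 1 library per treatment, so these differences have no replicate check and no test. A member was called higher or lower at a 2-fold difference in scaled CPM (with a prior count of 2), where the higher library had at least 2 CPM. In A549 13 members were higher and 74 lower of 107, beside 29.1% and 34.0% of all genes by the same rule. In H1975 2 were higher and 79 lower of 121, beside 14.8% and 20.9%. In HCC827 33 were higher and 32 lower of 136, beside 11.8% and 19.1%. For A549, H1975 and HCC827 the members' median log2 fold was -2.18, -1.64 and 0.20, and that of all genes was -0.11, -0.02 and -0.06. Setting the members at 0 counts to their bound left these medians as they were. Scaling by library totals moved the median of all genes in A549 by about a log2 unit, from -0.11 to -1.12, and the members' median with it, to -3.15.

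Low genes were lower with AL-X more often than high ones, so members were also set beside genes of their own level. Among genes at 2 to 20 CPM in the higher library, 66 of 93 members were lower and 10 higher in A549, beside 49.7% and 18.0% of all such genes. In H1975 70 of 107 were lower and 1 higher, beside 33.0% and 9.58%. In HCC827 28 of 116 were higher and 26 lower, beside 14.3% and 27.3%. Long non-coding RNA genes outside the LINC series were set beside the members too. Of those at 2 CPM or more, 44.2% were lower in A549 and 50.2% in H1975, with median log2 folds of -0.50 and -1.01, and in HCC827 28.3% were higher and 18.7% lower, with a median of 0.23. Protein-coding genes had medians of -0.16, 0.02 and -0.07 in A549, H1975 and HCC827. At 2 to 20 CPM in A549, the median was -2.20 for the members, -0.80 for other long non-coding RNA genes and -1.16 for protein-coding genes. At that level in H1975 the medians were -1.63, -1.08 and -0.43.

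**Figure D2:**
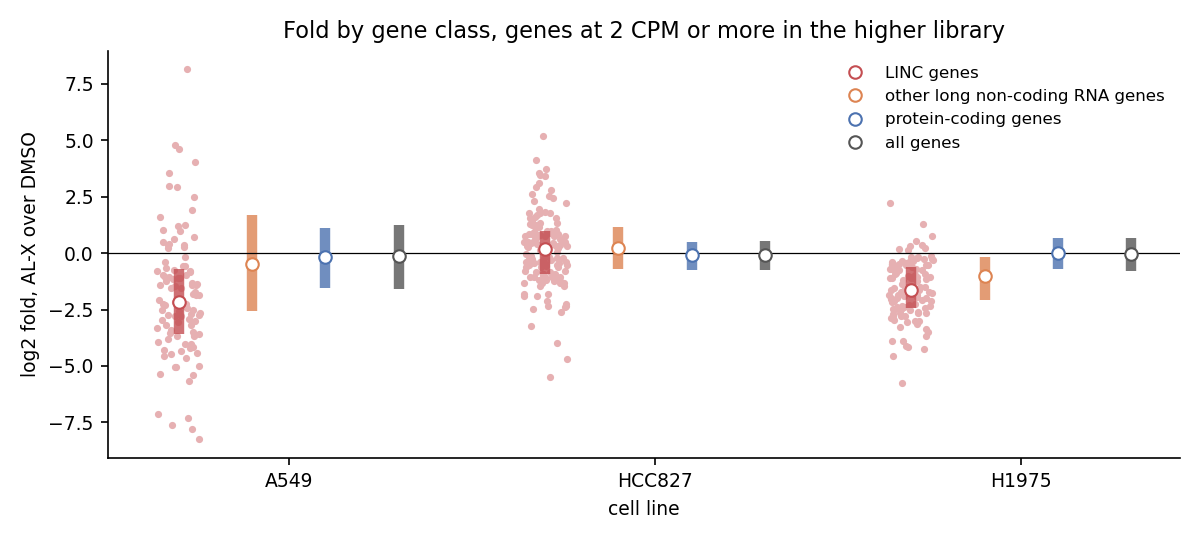
Log2 fold of AL-X over DMSO in each line for genes at 2 CPM or more in the higher library. Circles are medians, thick bars run from the lower to the upper quartile, and small points are single LINC genes. The LINC medians, -2.18 in A549 and -1.64 in H1975, lie below those of every other class there, and in HCC827 the LINC median is 0.20.

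Of the 57 members at 2 CPM or more in every line, 8 were lower by 2-fold in all 3, beside 4.28% of all genes, and 1 was higher in all 3, beside 2.6%. A further 17 were lower in A549 and H1975 but not in HCC827, beside 8.63% of all genes, and 5 of those were higher in HCC827, beside 0.945%. LINC01963 (chr2:216217045-216220192), a 1-exon gene 10742 bases from the DNA repair gene XRCC5, had similar folds in the 3 lines. It stood at 19.7 and 4.29 scaled CPM in A549, 7.91 and 1.30 in HCC827 and 5.18 and 0.918 in H1975, with DMSO and AL-X. Its log2 folds were -2.20, -2.59 and -2.47 (across lines -2.44, SE 0.71, edgeR adjusted p = 0.164), while XRCC5 was at 1.13, -0.62 and 0.64.

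LINC01106 and LINC01123, whose near-identical windows are printed above, were lower together. LINC01106 (chr2:110375138-110384442) stood at 27.9 and 2.25 scaled CPM in A549, 44.3 and 18.8 in HCC827 and 22.2 and 5.03 in H1975. LINC01123 (chr2:109987063-109996140) stood at 14.7 and 2.16, 44.6 and 19.5, and 22.1 and 3.14 in the same order. The transcripts are 99.512% identical over 2256 bases, so their values are not independent and the split of reads between them is uncertain. The across-line log2 folds were -2.33 and -2.27 (edgeR adjusted p = 0.15 for each). Exons of LINC01106 and LINC01123 also overlap the zinc finger pseudogenes ZBTB45P2 and ZBTB45P1.

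LINC03015, which shares its promoter region with LINC03014, was lower in all 3 lines. It stood at 3.81 and 0.0591 scaled CPM in A549, 8.29 and 2.38 in HCC827 and 6.53 and 0.494 in H1975. LINC03014 on the opposite strand stood at 1.37 and 0 in A549, at least 30.9-fold lower, at 2.54 and 1.01 in HCC827 and at 5.98 and 0.790 in H1975. The pair thus had the same direction in every line. LINC00339 (chr1:22024558-22031223), near the cytoskeleton regulator gene CDC42, had log2 folds of -2.80, -1.07 and -2.02, and its exons overlap 5 other annotated genes.

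LINC01128 (chr1:825138-859446) was the member higher in all 3 lines. It stood at 9.12 and 51.5 scaled CPM in A549, 7.98 and 26.0 in HCC827 and 9.88 and 23.9 in H1975, with DMSO and AL-X, so the groups did not overlap. Its log2 folds were 2.49, 1.70 and 1.27 (across lines 1.82, SE 0.56, edgeR adjusted p = 0.177). With library totals as the scaling its log2 fold in H1975 was 0.86, under 2-fold, and no member was higher in all 3 lines. Its exons overlap LINC00115 on the other strand, so reads of the pair cannot be told apart where counting ignored strand. The neighbouring LINC01409 had log2 folds of -2.10, 0.57 and -1.07.

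**Figure D3:**
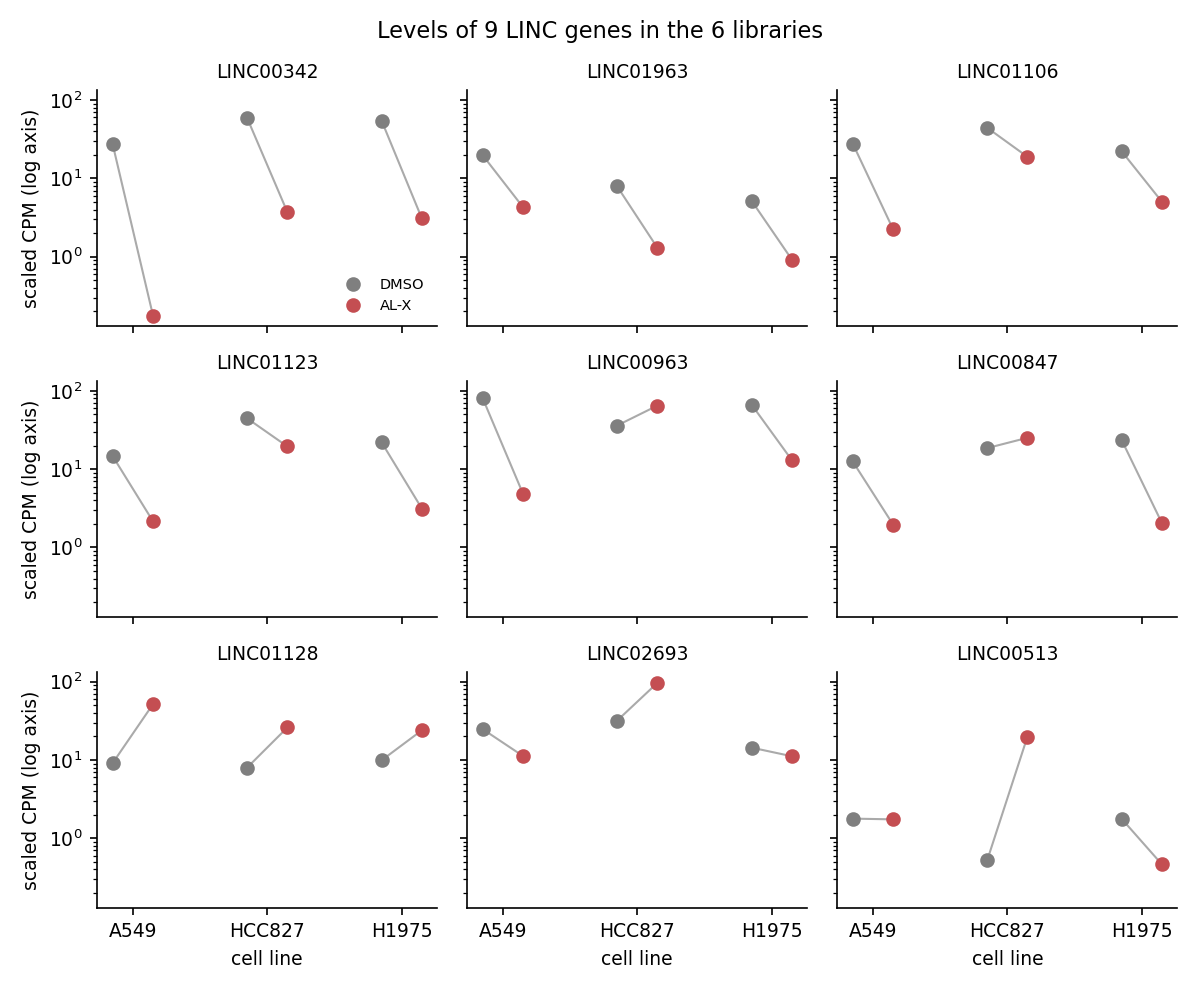
Scaled CPM (log axis) of 9 LINC genes in each line, grey for DMSO and red for AL-X, 1 library per point. LINC00342, LINC01963, LINC01106 and LINC01123 are lower with AL-X in every line, LINC01128 is higher in every line (9.12 to 51.5 in A549), and the AL-X points of LINC00963, LINC00847 and LINC02693 lie below DMSO in A549 and H1975 and above it in HCC827, by under 2-fold for LINC00963 and LINC00847 in HCC827 and for LINC02693 in H1975.

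In A549 the largest differences were losses. LINC00173 (chr12:116533422-116536518), described in lung cancers, had 651 counts with DMSO and 0 with AL-X, at least 119-fold lower. Its nearest protein-coding gene MAP1LC3B2, an autophagy gene, was higher there, at 2.57 and 35.4 scaled CPM. LINC02593 (chr1:916865-921016) went from 35.5 to 0.813 scaled CPM, a log2 fold of -5.42 (95% counting interval -5.86 to -5.06). Its start lies 2912 bases from that of SAMD11 on the opposite strand, and SAMD11 went from 94.5 to 2.10. LINC03040 went from 16.4 to 0.473 and LINC01833, beside the eye and forebrain gene SIX3, from 12.3 to 0.369. The last 3 had at least 86.7% of their DMSO level in A549, so they were members mainly of that line.

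The A549 members with the largest positive folds were fewer. LINC00324 (chr17:8220642-8224043), which lies 778 bases downstream of the telomere gene CTC1, went from 0.235 to 6.95 scaled CPM (log2 fold 4.79, counting interval 4.34 to 5.48). The same gene was at 0.447 and 1.79 in HCC827 and at 0.271 and 0 in H1975. CTC1 had a log2 fold of -2.33 in A549. LINC00115 went from 1.09 to 27.1, LINC00707 from 1.62 to 12.9 and LINC01004 from 0.883 to 6.75. Exons of LINC00115 overlap those of LINC01128, and 464 of its bases are 99.138% identical to ZNF596. Reads may thus have been split among these genes. ZNF596 had a log2 fold of 2.06 in A549. LINC01004 lies 1135 bases from KMT2E, a chromatin regulator, which had a log2 fold of 1.49 in A549.

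H1975 had 79 members lower, nearly all of those called. LINC02925 (chr22:46541495-46548196), whose start is 4325 bases from that of the cadherin gene CELSR1, went from 10.1 to 0.168 scaled CPM (log2 fold -5.77, counting interval -6.69 to -5.22). In HCC827 it was at 0.873 and 1.42. LINC00638 went from 5.26 to 0.336, and LINC00847 (chr5:180830957-180835726) from 23.6 to 2.05. LINC00847 was at 12.5 and 1.97 in A549 and at 18.6 and 25.2 in HCC827, and its neighbour ZFP62 was at 31.5 and 3.25 in A549, 25.4 and 20.4 in HCC827 and 32.2 and 4.02 in H1975. The pair was lower together in A549 and H1975 and moved by less than 2-fold in HCC827. Exons of LINC00847 also overlap those of HEIH, which had log2 folds of -0.79, 0.74 and -1.53 in A549, HCC827 and H1975. Besides LINC01128, the member higher in H1975 was LINC00472 (chr6:71344344-71420769), described as low in several tumours. It went from 2.05 to 9.72 scaled CPM there, from 17.9 to 6.16 in A549 and from 4.04 to 4.52 in HCC827.

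HCC827 had members in both directions in nearly equal number. LINC00513, which has been linked to interferon signalling, went from 0.521 to 19.9 scaled CPM (log2 fold 5.21, counting interval 4.93 to 5.60). It was at 1.78 and 1.74 in A549 and at 1.78 and 0.464 in H1975, so the gain was seen in 1 line. LINC01301 went from 0.602 to 10.8, its start close to that of RAB2A, a membrane trafficking gene with a log2 fold of 0.22. LINC02535 went from 2.10 to 11.4, and LINC02693 from 31.8 to 96.6. LINC02474 went the other way, from 27.5 to 2.90 (log2 fold -3.24), and was also lower in H1975, from 72.3 to 18.0. LINC01806 went from 7.34 to 1.30 and LINC02246 from 7.03 to 1.32.

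Members called in opposite directions in 2 lines were counted by the same rule. They numbered 11 of 66 for A549 and HCC827, beside 4.17% of all genes, and all 11 were lower in A549 and higher in HCC827. They numbered 8 of 84 for HCC827 and H1975, beside 2.66%, each higher in HCC827, and 4 of 66 for A549 and H1975, beside 0.963%. LINC02604 (chr7:66902857-66906297) went from 8.17 to 2.32 scaled CPM in A549 and from 8.86 to 26.5 in HCC827. LINC00174 went from 12.5 to 31.6 in HCC827 and from 15.6 to 4.70 in H1975, and LINC01176 from 1.99 to 5.31 and from 7.39 to 2.87. Across members at 2 CPM or more in both lines, Pearson's r of the folds was 0.58 for A549 and H1975 (n = 66), 0.23 for A549 and HCC827 (n = 66) and 0.28 for HCC827 and H1975 (n = 84), and over all such genes 0.73, 0.36 and 0.31. These are descriptions across genes measured in the same libraries.

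**Figure D4:**
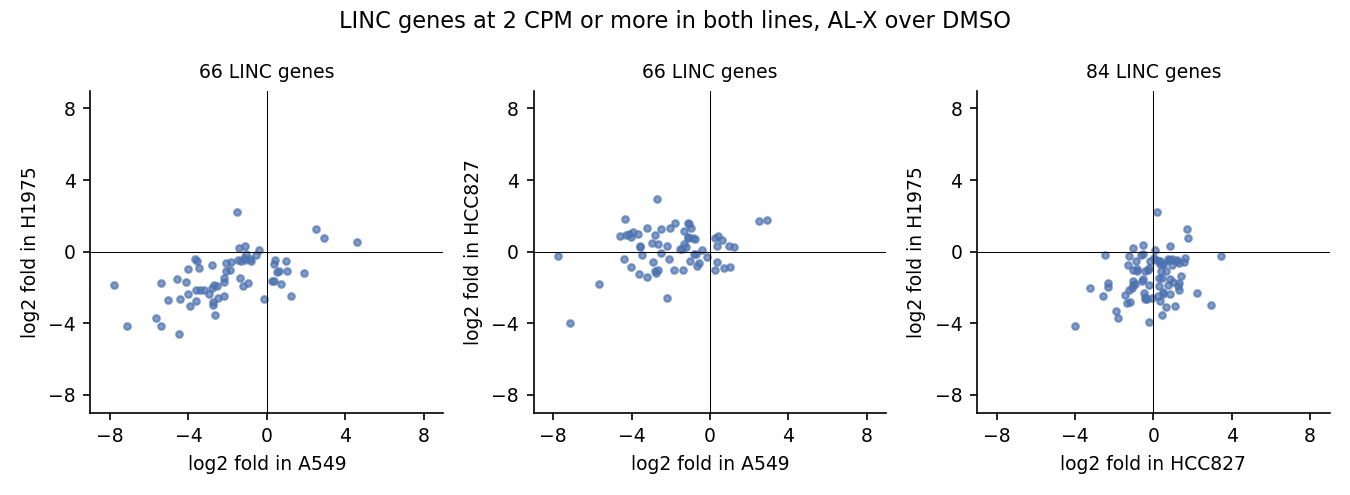
Each point is a LINC gene at 2 CPM or more in the higher library of both lines, placed by its log2 fold of AL-X over DMSO in each. In the A549 and H1975 panel most of the 66 points lie below 0 on both axes; in the panels with HCC827 the points spread to both sides of its 0 line.

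The difference between lines was also tested with an interaction term in edgeR, which leaves 1 residual degree of freedom. No member passed at an adjusted p under 0.05 in A549, HCC827 or H1975 against the other lines, beside 0.28%, 0.261% and 0.0% of all genes. At an unadjusted p under 0.05 in HCC827, 36 members had a higher fold and 4 a lower fold than the mean of the other lines, beside 4.81% and 3.38% of all genes. In A549 the counts were 8 and 25, beside 4.68% and 6.35%, and in H1975 1 and 6, beside 0.462% and 0.698%. LINC00963 had the lowest p in HCC827, with a log2 fold 4.05 above the other lines (edgeR adjusted p = 0.12), and LINC00513 followed, 6.23 above (edgeR adjusted p = 0.128).

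Of 20 LINC genes listed by name from work on lung and other cancers, 16 were members. LINC01559 and LINC02154 peaked at 0.733 and 0.506 CPM, and the other two names were not matched by symbol. Of the 16, 1 fell (LINC00342) and none rose across lines in the edgeR test. At 2-fold, 1 was higher and 9 lower of 13 for A549, 1 and 6 of 12 for H1975 and 1 and 4 of 11 for HCC827, against the background shares given above. The list's median log2 folds were -1.46, -0.93 and -0.52 in A549, H1975 and HCC827.

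LINC00963, first described in prostate cancer, was among the most abundant in CPM. It stood at 80.4 and 4.85 scaled CPM in A549, 36.1 and 64.8 in HCC827 and 66.8 and 13.0 in H1975, with DMSO and AL-X. LINC00511, described as raised in lung adenocarcinoma, stood at 21.8 and 8.28, 18.8 and 9.11, and 33.0 and 37.9 in the same order. It was lower by 2-fold in A549 and HCC827 and about level in H1975. LINC00857, also described as raised in lung cancer, had log2 folds of -1.87, -1.05 and -1.01. LINC00641, 2236 bases downstream of the splicing factor gene HNRNPC, was higher in A549, with a log2 fold of 1.02, and lower in H1975, with -1.09; its value for HCC827 was -0.85. With library totals as the scaling its value in A549 was 0.02, so the call there was lost.

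Several listed members were expressed in mainly 1 line. LINC01234 had 97.3% of its DMSO level in A549 and went there from 17.0 to 3.10 scaled CPM. LINC00261, beside the endoderm factor gene FOXA2 and described as a tumour suppressor, went from 9.29 to 0.857 in A549 and from 4.19 to 0.948 in H1975, and stood at 0.237 and 0.248 in HCC827. LINC00460 had 78.6% of its DMSO level in H1975, with 3.85 and 2.11 there. LINC00973 went from 17.7 to 5.75 in H1975 and from 6.77 to 3.34 in HCC827, and was at 2.38 and 2.85 in A549. LINC00520 was seen mainly in HCC827, at 0.413 and 2.48. LINC00467, LINC00662 and LINC01503 had log2 folds between -0.52 and 0.75 in HCC827 and H1975 and of -0.85, -1.46 and -1.04 in A549.

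Long non-coding RNA genes outside the LINC series served as a list for comparison. Of 56 listed, 49 were tested, and 1 rose and none fell in the edgeR test. MIR22HG, a microRNA host gene, rose from 17.5 to 568 scaled CPM in A549, from 9.34 to 132 in HCC827 and from 8.88 to 156 in H1975 (log2 fold 4.32, SE 0.58, edgeR adjusted p = 0.0151). At 2-fold, 18 were higher and 10 lower of 40 for A549, 7 and 8 of 37 for HCC827, and 15 and 6 of 36 for H1975. Their median log2 folds were 0.71, -0.26 and 0.70. Over all other long non-coding RNA genes at 2 CPM or more the medians were -0.50, 0.23 and -1.01, on the same side of 0 as those of the LINC members in each line.

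Many members touch another gene, which bears on their counts. The body of 160 members overlapped another annotated gene of any type. The others were sorted by protein-coding genes only. Of these, 16 had a start within 5 kb of the start of a protein-coding gene on the opposite strand (divergent). Another 18 lay within 5 kb downstream of a protein-coding gene on the same strand, and 119 had neither. A non-coding partner, such as LINC03014 for LINC03015, did not count. Overlapping members included, 24 had such a divergent start and 27 such a position downstream. Exons of 98 members overlapped exons of another gene, and 38 had a copy of at least 200 bases and 98% identity. Among members with neither, 38 of 57 were lower and 6 higher in A549, 45 of 63 lower and 0 higher in H1975, and 15 of 78 lower and 24 higher in HCC827. Of all members at 2 CPM or more, 69.2% were lower and 12.1% higher in A549, 65.3% and 1.65% in H1975, and 23.5% and 24.3% in HCC827. Of all genes the shares were 34.0% and 29.1%, 20.9% and 14.8%, and 19.1% and 11.8% in the same order. The 6 divergent members at 2 CPM or more in H1975 were all lower, with a median log2 fold of -2.25. With most members lower there, so small a class cannot be set apart from the rest. The 5 divergent members in HCC827 had a median of 0.32 and none was called. In A549 the medians were -1.63 for 60 overlapping members, -3.94 for 6 divergent, -2.41 for 6 downstream and -2.27 for the 35 other members. The divergent and downstream classes are too small there as well to be set apart.

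Members were also set beside their nearest protein-coding gene. Over pairs at 2 CPM or more, Pearson's r of the folds was -0.01 for A549 (78 pairs), 0.38 for HCC827 (87 pairs) and -0.07 for H1975 (85 pairs). Spearman's rho was 0.02, 0.36 and -0.13. Without members whose body overlaps a gene, r was 0.13, 0.32 and 0.08. For pairs within 10 kb, r was 0.17 in A549 (35 pairs), 0.15 in HCC827 (36 pairs) and -0.24 in H1975 (36 pairs). Spearman's rho for them was 0.08, 0.28 and -0.31. Over all pairs in A549, 49 members were lower. Their neighbours were lower in 17 pairs, higher in 15 and not called in 17. Of all genes there, 34.0% were lower and 29.1% higher, so these neighbours were called about as often as genes in general. Of the 53 lower in H1975, 8 had a lower, 8 a higher and 37 an uncalled neighbour, beside 20.9% and 14.8% of all genes. Of the 16 lower in HCC827, 5 had a lower, 1 a higher and 10 an uncalled neighbour, beside 19.1% and 11.8%. Pairs share their libraries, and overlapping pairs may share reads.

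**Figure D5:**
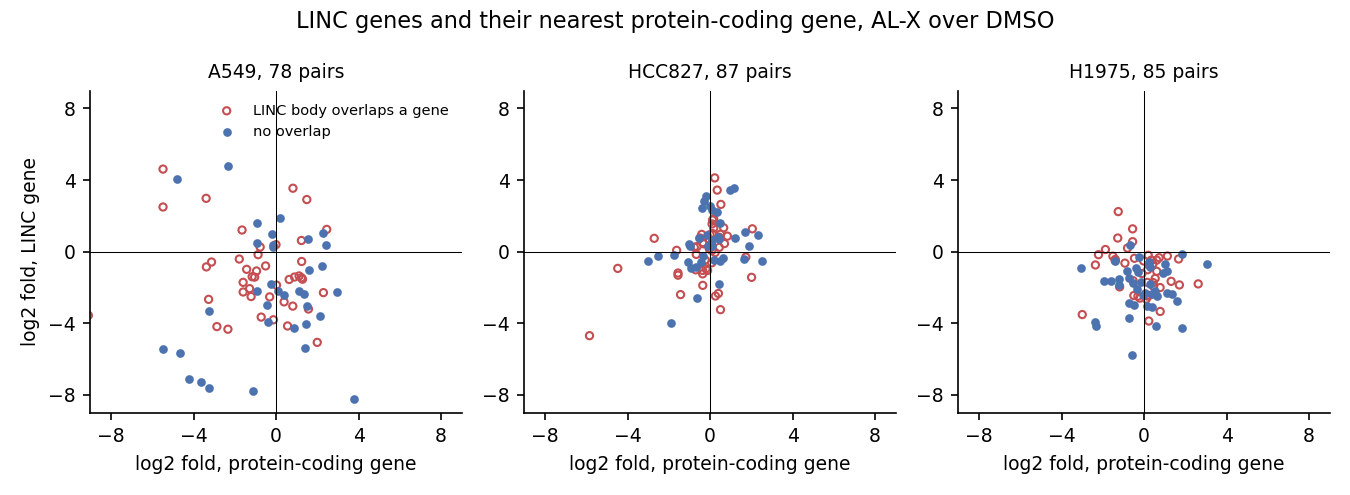
Log2 fold of each LINC gene against that of its nearest protein-coding gene, AL-X over DMSO, for pairs at 2 CPM or more. Open red circles are LINC genes whose body overlaps another gene and blue points are the rest. The LINC folds lie mostly below 0 in A549 and H1975 over the whole range of the neighbour's fold. In HCC827 they rise with it (Pearson's r 0.38 over all 87 pairs and 0.15 over the 36 within 10 kb).

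Members close to each other were examined last. Within 50 kb of another member lay 47 members, in 22 clusters of at most 3. LINC03015 and LINC03014 had the same direction in every line, while LINC01128 and LINC01409 differed in direction in A549 and H1975 and were both above 0 in HCC827. Fold showed little relation to structure. In the order A549, HCC827 and H1975, Spearman's rho with exonic length was -0.10, -0.10 and -0.06, and with exon number -0.10, -0.06 and 0.14.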

How the data were processed

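The authors deposited whole-number gene counts for the 6 libraries, which were made with a SureSelect XT HS2 mRNA kit per the labels' protocols. Per the submitters' processing notes, bcl2fastq 2.20 and GRCh38 were used; no aligner, counter, strand setting or annotation is given in the sources used here. Counts were used as deposited. Ensembl identifiers of 60401 of 60671 rows were matched to symbols, and positions, types and exons came from GENCODE 29, which holds 58453 of the rows. Copies were found with BLAST+ 2.17.0. Members and lists were chosen with earlier results of these data known.

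Across lines, edgeR 4.0.16 (R 4.3.3; TMM, filterByExpr, robust quasi-likelihood test) was fitted to all 20344 genes kept, with line as a block because the DMSO and AL-X libraries share a cell line, and p-values were adjusted by Benjamini-Hochberg at 0.05. The interaction of line and treatment used the same counts. Alternatives were DESeq2 1.42.0, limma-voom (limma 3.58.1), other scalings and filters, no block, and leaving out each line. The fit was run on simulated data in which each changed gene had the same fold in every line. Folds that differ between lines were not simulated, so that run says nothing about them. With line as a block, p-values reflect how the difference between AL-X and DMSO varies among the lines. That spread also holds any technical spread between libraries, and the labels do not say that libraries come from separate experiments.

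Within a line, the log2 fold used TMM-scaled CPM with a prior count of 2, and a call needed 2-fold and 2 CPM in the higher library. Counting intervals are exact binomial at 95%, and a count of 0 was set to a floor of 3 counts per library for bounds. Levels per kilobase use merged exons. Named members were those past the test, those at 2-fold in the same direction in all lines, the largest folds at 5 CPM or more in each line, the 8 highest per kilobase, the most line-restricted, the largest opposite folds, the 3 on either side of 1 CPM, and the 20 listed cancer genes. PCR duplicates were not assessed.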

Additional observations from a re-analysis of the deposited data

How the results depend on the processing

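The lines were the replicates, and no line could be left out within itself because each has 1 library per treatment. Across lines, the member called lower (1) became 0 with library totals, 0 with no filter, 0 with mitochondrial genes left out (an alternative added after seeing the data), 6 with limma-voom and 33 with DESeq2, and leaving out a line gave 1 to 2; without the replicate block it was 0, with LINC00342 at a log2 fold of -4.35. Members called higher (0) became 2 with DESeq2 and stayed 0 in the other settings; the cause of these shifts was not tested. LINC00339, LINC01106, LINC01123, LINC01128, LINC01963 and LINC03015 passed in DESeq2 and not in edgeR. No sign reversed in any setting.

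Within lines, counts of higher and lower members moved with the floor and the fold. In A549 the 13 higher became 7 with library totals, 6 at a 5 CPM floor and 6 without members that overlap exons or have a copy (added after seeing the data), and the 74 lower became 42 and 38 under the last 2. In HCC827 the 33 higher became 15 at 5 CPM and 21 at 3-fold, and the 32 lower became 56 at 1 CPM, 20 at 5 CPM, 15 at 3-fold and 15 without overlaps or copies. In H1975 the 2 higher became 1 with library totals, 5 at 1 CPM, 1 at 3-fold, 1 among genes at 2 to 20 CPM (added after seeing the data) and 0 without overlaps or copies, and the 79 lower became 119 at 1 CPM, 45 at 5 CPM and 45 without overlaps or copies; these settings change how many members can be counted. Members higher in all 3 lines (1) became 0 with library totals, 2 at 1 CPM and 0 at 3-fold, and members lower in all 3 (8) became 13 at 1 CPM, 5 at 5 CPM and 3 at 3-fold. With library totals LINC00339, LINC00511, LINC00857 and LINC00973 were lower by less than 2-fold in HCC827. Of 78 folds of named members, 54 moved beyond their counting interval with library totals, and none did with DESeq2 size factors or a prior count of 0.5 or 5. Members numbered 129 at a 5 CPM rule. Outside the mitochondrial genome their share of counts was 0.127% and 0.160% with DMSO in A549 and HCC827, 0.164% in H1975, and 0.171% in HCC827 with AL-X. Depth limits members at 1 CPM to about 100 counts in a library.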
